A study of Mus musculus with 5 samples.

Results

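Genes of the p53 network were read out in the mouse neuroblastoma line N18. The cells had received either an adenovirus that delivers the coding sequence of the protein kinase gene Dyrk1a (pAd-Dyrk1a vector) or a control adenovirus (pAd-Track-CMV vector). Each of 5 two-colour Agilent arrays set RNA of 1 Dyrk1a sample against RNA of 1 control vector sample, so that cells on both sides carried an adenovirus. The Dyrk1a side was labelled with Cy5 in replicates 1 to 3 and with Cy3 in the swapped replicates 4 and 5. According to the submitters the 5 pairs were independent samples, while the time after infection and the viral dose are not stated in the labels. The p53 set was a list of 32 genes, the p53 gene Trp53 with its regulators and targets, and its members were the probes whose annotated gene symbol is on that list. These were 59 probes of 30 genes, out of 32042 probes annotated to exactly 1 gene, which covered 19087 genes. Of the 30 genes, 26 had at least 1 probe with a value in all 5 arrays and were tested among 11191 genes. A value in every array was present for 41 of the 59 probes (69.5%), and for 16997 of the 32042 probes annotated to 1 gene. Trp53 itself and Bax, which encodes a pore-forming protein of the mitochondrial death pathway, were not analysed here.

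p53 is a transcription factor that is held low in unstressed cells by the ubiquitin ligase Mdm2 and its relative Mdm4, and that accumulates after DNA damage and other stress. Its targets halt the cell cycle, repair DNA, adjust metabolism or start apoptosis, and Mdm2 is itself a target, which closes a feedback loop. The set also holds genes of the mitotic spindle, Gtse1, Psrc1 and Ckap2, which are tied to p53 and whose transcripts are known to be made mainly in dividing cells.

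Every value below is the log2 of the Dyrk1a signal over the control vector signal. The log base was inferred from the size of the deposited values. If the base were e, each log2 value would be multiplied by 1.44, with no p-value changed. The Dyrk1a probe measured in every array was at 2.46, 2.30, 1.93, 3.02 and 2.37 in replicates 1 to 5, above 0 in both dye orientations, which sets the direction of the ratios. Over all features, arrays of opposite orientation nevertheless correlated at -0.69 to -0.42. Over the 11191 tested genes these correlations were -0.11 to 0.095, against 0.022 to 0.68 between arrays of the same orientation. Replicate 2 stood apart, its interquartile range over tested genes being 0.288, while the other arrays had 0.145 to 0.166. The tables used here give ratios and no levels, so the identity of the cells could not be checked by marker level. Of the marker genes listed, 7 of 10 for sympathetic neuroblasts, 2 of 8 for glia, 3 of 7 for fibroblasts and 1 of 7 for immune cells had a value in all 5 arrays, and the labels do not say why values are blank.

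Most of the p53 network, like most genes tested, stayed close to a ratio of 1 when Dyrk1a was added. The 3 members with the smallest p were the spindle genes Gtse1, Psrc1 and Ckap2, at -0.37, -0.20 and -0.13. Of the 26 members tested, 22 had a fitted log2 ratio within 0.1 of 0. The median absolute log2 ratio was 0.043 for the members and 0.045 for all tested genes. In the limma fit 0 of the 26 passed an adjusted p of 0.05, where 0.00894% of all genes tested did, which was Dyrk1a alone. At an unadjusted p under 0.05 there were 3 members lower and 0 higher, against 6.38% and 5.25% of all genes. The members' median was 0.0074, beside 0.0080 for all tested genes, with 14 members above 0 and 12 below. Their array medians were -0.047, -0.067 and 0.0095 in replicates 1 to 3 and 0.014 and 0.031 in replicates 4 and 5. The 95% interval of the fitted change lay wholly within 1.2-fold either way for 22 of the 26 members (84.6%), and for 84.8% of all genes tested. The exceptions were Gtse1 and Psrc1 on the low side and Ephx1 and Aen on the high side. A lower ratio in these bulk samples cannot tell fewer cells carrying a transcript apart from less of it per cell.

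**Figure D1:**
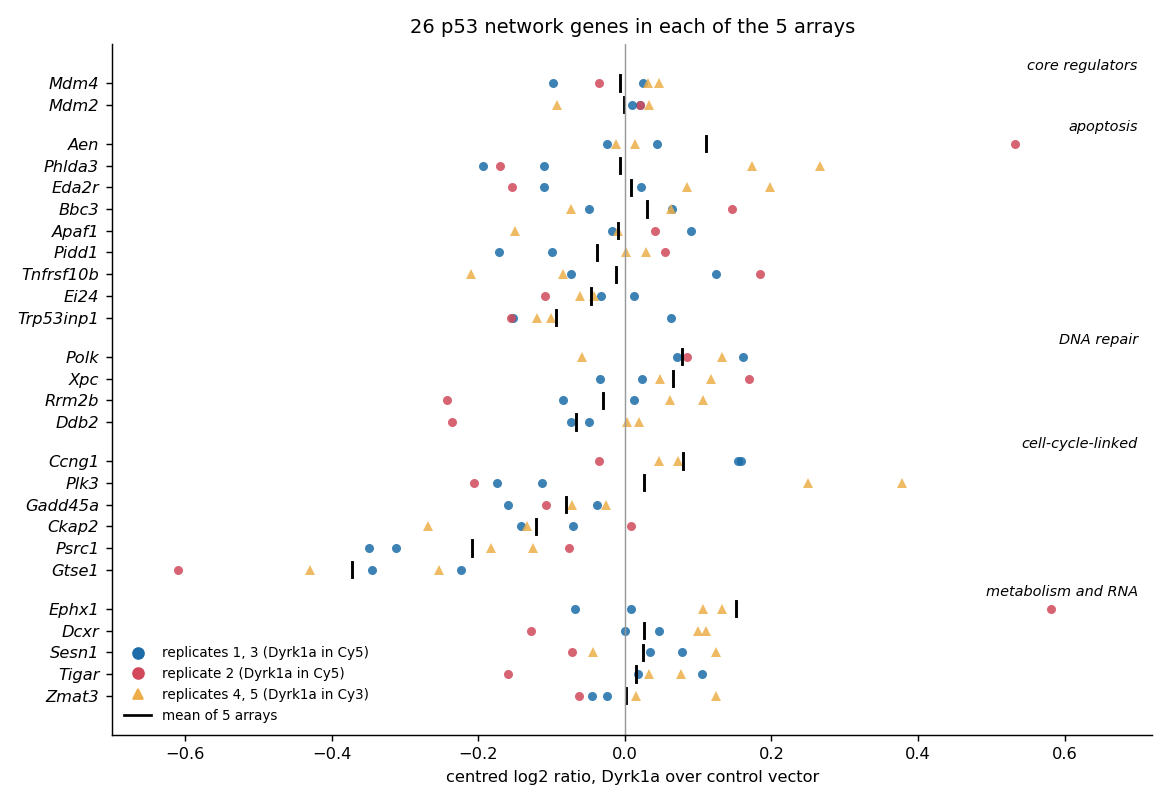
Centred log2 ratio of Dyrk1a over control vector (horizontal axis) for the 26 tested p53 network genes, grouped by role, with 1 point per array, circles where Dyrk1a RNA carried Cy5 and triangles where it carried Cy3, and a black bar for the mean of 5 arrays. Gtse1, Psrc1 and Gadd45a lie below 0 in all 5 arrays, Plk3 and Phlda3 split by dye, and replicate 2 stands apart in Aen and Ephx1.

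The core regulators were near 0. Mdm2, the ubiquitin ligase that both restrains p53 and is induced by it, was at 0.021, 0.020, 0.010, -0.092 and 0.034 in replicates 1 to 5. Only replicate 4 was below 0. The fitted log2 ratio of Mdm2 was -0.0062 (SE 0.036, 95% interval -0.095 to 0.082, limma adjusted p = 0.975). For the mean of its probes this interval runs from a ratio of 0.937 to 1.06. Its probes 37702 and 42794 were fitted at -0.016 and 0.0057, but they differed in sign in every replicate except 3. Probe 37702 was at 0.13, 0.086, 0.0050, -0.20 and -0.010 in replicates 1 to 5. Probe 42794 was at -0.087, -0.046, 0.015, 0.0195 and 0.077. Mdm4, the relative of Mdm2 that binds p53 and blocks its activity, was at -0.098, -0.036, 0.024, 0.032 and 0.047. Values of both signs occurred among the arrays with Dyrk1a in Cy5, and both arrays with it in Cy3 were above 0. The fitted value of Mdm4, from 3 probes, was 0.0014 (SE 0.036, 95% interval -0.087 to 0.090, limma adjusted p = 0.995).

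Among apoptosis genes 0 of the 9 tested passed the threshold or an unadjusted p of 0.05, and their median was -0.021, with 4 above 0 and 5 below. The most displaced by its p was Trp53inp1, which encodes a p53-induced nuclear stress protein. Trp53inp1 was at -0.15, -0.16, 0.063, -0.12 and -0.10. It was below 0 in 4 of 5 arrays and above it in replicate 3. The fitted value of Trp53inp1 was -0.096 (SE 0.046, 95% interval -0.21 to 0.017, limma adjusted p = 0.528).

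The apoptosis genes Bbc3, Apaf1, Ei24 and Pidd1 showed small ratios of mixed sign. Bbc3, which encodes the BH3-only protein Puma, had a fitted log2 ratio of 0.024 (95% interval -0.087 to 0.14). Apaf1, the scaffold of the apoptosome, was at -0.021 (95% interval -0.12 to 0.077). Ei24, an endoplasmic reticulum membrane protein gene first found as etoposide-induced, was at -0.048 (95% interval -0.14 to 0.041). Pidd1, a death-domain protein gene, was at -0.029, with its 3 probes fitted at -0.020, -0.059 and -0.0032. Each of these 4 genes had a limma adjusted p of 0.704 or more.

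Aen, a nuclease gene of the apoptotic response, rested on replicate 2. The Aen probe measured in all arrays was at -0.025, 0.53, 0.044, 0.014 and -0.012. Replicate 2 lies far above the others, which straddle 0. The fitted value of Aen was 0.092 (95% interval -0.12 to 0.31, limma adjusted p = 0.770). It was -0.016 without replicate 2, where a further Aen probe, with a mean of -0.037 over the 4 arrays that measured it, entered the gene's value.

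The death receptor genes had larger fitted dye effects, 0.11 for Tnfrsf10b and -0.11 for Eda2r, than fitted changes with Dyrk1a. Tnfrsf10b, the mouse receptor for the death ligand TRAIL, was at 0.12, 0.19 and -0.073 where Dyrk1a carried Cy5, and at -0.21 and -0.085 where it carried Cy3, for a fitted value of -0.034 (95% interval -0.16 to 0.091). Eda2r, a receptor of the same family that binds an ectodysplasin, was at -0.11, -0.15 and 0.022 in Cy5 and at 0.20 and 0.085 in Cy3, for a fitted value of 0.030 (95% interval -0.075 to 0.14). These dye effects had limma adjusted p of 0.338 and 0.268. Phlda3, which encodes a small inhibitor of Akt signalling, was at -0.19, -0.17 and -0.11 where Dyrk1a carried Cy5, and at 0.27 and 0.17 where it carried Cy3. The orientations did not overlap, and the fitted change of Phlda3 was 0.031 (95% interval -0.058 to 0.12) beside a dye effect of -0.19 (limma adjusted p = 0.0616).

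Apoptosis members without a complete record were left out of the fit. Fas, the receptor of the death ligand FasL, had values only in arrays with Dyrk1a in Cy5. Its probe 24102 was at 0.19 and 0.086 in replicates 1 and 3, and its probe 40614 at -0.066, -0.029 and -0.16 in replicates 1 to 3. The Fas probes therefore lay on opposite sides of 0. Pmaip1, which encodes the BH3-only protein Noxa, was at -0.15, -0.071, -0.15 and 0.080 in replicates 1, 2, 4 and 5, below 0 in 3 of the 4. Perp, a membrane protein gene of p53-dependent apoptosis, was at -0.026 and 0.12 in replicates 1 and 5.

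The 4 DNA repair genes had fitted values on both sides of 0, with a median of 0.029, and 0 passed an unadjusted p of 0.05. Polk, a polymerase that copies past damaged bases, was at 0.16, 0.085, 0.071, 0.13 and -0.059, above 0 in 4 of 5 arrays. Its fitted value was 0.071 (SE 0.043, 95% interval -0.034 to 0.18, limma adjusted p = 0.628). Xpc, which recognises helix-distorting damage for nucleotide excision repair, was at 0.068 (95% interval -0.038 to 0.18), but its probes differed. Xpc probe 43150 was at 0.069, 0.28, 0.22, 0.12 and 0.21, above 0 in all 5 arrays, and probe 1752 was at -0.021, 0.062, -0.29, 0.12 and -0.11. Fitted each as a feature of its own, they were at 0.18 (limma adjusted p = 0.260) and -0.038 (limma adjusted p = 0.899). Ddb2, the other damage sensor of this pathway, was fitted at -0.054 (95% interval -0.16 to 0.049). Rrm2b, the p53-inducible subunit of ribonucleotide reductase, was fitted at -0.011 (95% interval -0.13 to 0.11), with values from -0.24 in replicate 2 to 0.11 in replicate 5.

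The cell-cycle-linked genes held Gtse1 and Psrc1, the members furthest from 0. Their median was -0.10 over 6 genes tested, with array medians of -0.15, -0.091, -0.12, -0.13 and -0.076 in replicates 1 to 5. These 6 genes included the 3 members with an unadjusted p under 0.05, and the 3 members below 0 in all 5 arrays, Gtse1, Psrc1 and Gadd45a, where 6.32% of all tested genes were below 0 in all 5. None of the 26 members was above 0 in all 5 arrays, where 6.71% of all tested genes were. Over the 41 member probes with a value in every array, 3 were below 0 in all 5, in Gtse1, Psrc1 and Gadd45a, and 3 were above, in Ccng1, Xpc and Ephx1. The Ephx1 probe, 12014, was at only 0.0020 in replicates 1 and 3.

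Gtse1, which encodes a microtubule-binding protein of G2 and mitosis that in human cells also moves p53 out of the nucleus, was at -0.22, -0.61, -0.35, -0.43 and -0.25. It was below 0 in 5 of 5 arrays, lowest in replicate 2, and its orientation means of -0.39 in Cy5 and -0.34 in Cy3 were alike. The fitted log2 ratio of Gtse1 was -0.37 (SE 0.066, 95% interval -0.53 to -0.21), a 1.29-fold lower level (limma unadjusted p = 0.0015, adjusted p = 0.127). Psrc1, a microtubule protein gene of the mitotic spindle, was at -0.31, -0.076, -0.35, -0.18 and -0.13, also below 0 in 5 of 5 arrays. Its fitted value was -0.20 (SE 0.051, 95% interval -0.33 to -0.074), a 1.15-fold lower level (limma adjusted p = 0.226). The probes of Psrc1 disagreed in replicate 2. Probe 24049 was at -0.41, -0.47, -0.44, -0.26 and -0.19, with a fitted value of -0.33 as its own feature (limma adjusted p = 0.0862). Probes 1021 and 14082 were fitted at -0.14 and -0.12, and stood at 0.091 and 0.15 in replicate 2, the only array in which they were above 0. Ckap2, a further spindle microtubule protein gene, was at -0.14, 0.0090, -0.071, -0.27 and -0.13, below 0 in 4 of 5 arrays. The fitted value of Ckap2 was -0.13 (SE 0.042, 95% interval -0.24 to -0.032, limma adjusted p = 0.312). Its probe 9754 was at 0.032, -0.11 and 0.029 where Dyrk1a carried Cy5, and at -0.39 and -0.24 where it carried Cy3, while probe 4573 ran from -0.32 in replicate 1 to 0.12 in replicate 2.

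Whether Gtse1 and Psrc1 passed the threshold depended on replicate 2 and on how the arrays were weighted. Gtse1, but not Psrc1, also passed with the arrays scaled to the same spread or quantile-normalized. Without replicate 2, limma called 2 of the 26 members lower and 0 higher, against 2.16% and 0.706% of all genes in that fit. These were Gtse1, at -0.31 (limma adjusted p = 0.0268), and Psrc1, at -0.24 (limma adjusted p = 0.0246), while Ckap2 was at -0.15 (limma adjusted p = 0.0912). With replicate 1, 3, 4 or 5 left out in turn, none of these 3 genes passed.

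**Figure D2:**
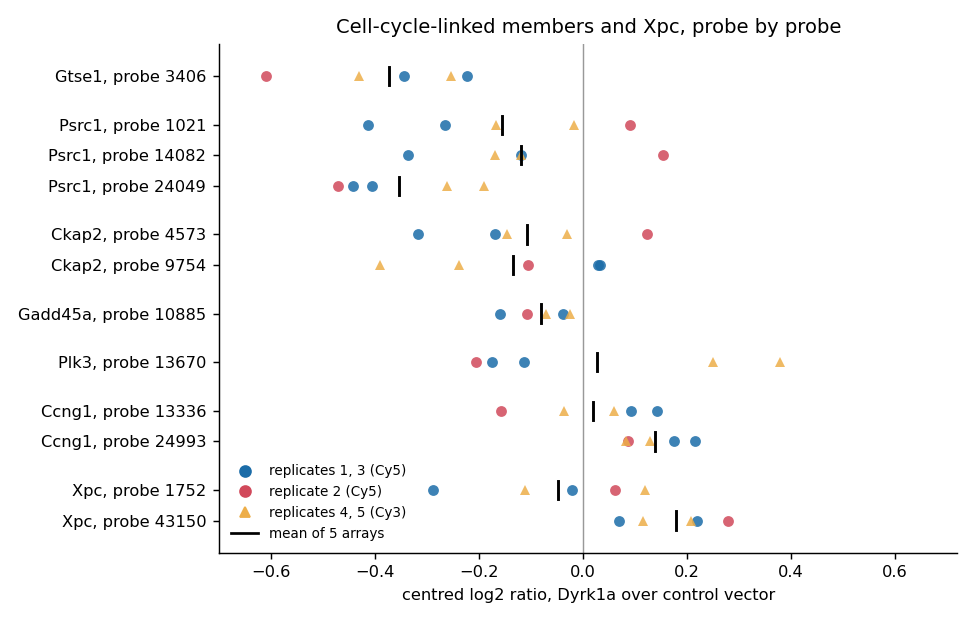
Centred log2 ratio of Dyrk1a over control vector (horizontal axis) for each probe of 7 members measured in all 5 arrays, with 1 point per array, circles for Dyrk1a in Cy5, triangles for Dyrk1a in Cy3, and a black bar for the mean. Psrc1 probe 24049 lies between -0.47 and -0.19 while the other Psrc1 probes cross 0 in replicate 2, and 1 probe each of Ccng1 and Xpc lies above 0 in every array.

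The other cell-cycle-linked genes lay closer to 0 or differed by dye. Gadd45a, a growth arrest gene induced by DNA damage, was at -0.16, -0.11, -0.038, -0.072 and -0.026. All 5 arrays were below 0 by small amounts, and the fitted value was -0.075 (SE 0.036, 95% interval -0.16 to 0.014, limma adjusted p = 0.530). Ccng1, cyclin G1, a classical p53 target that feeds back on Mdm2, was at 0.15, -0.036, 0.16, 0.072 and 0.046, above 0 in 4 of 5 arrays. The fitted value of Ccng1 was 0.076 (SE 0.044, 95% interval -0.031 to 0.18, limma adjusted p = 0.606). Its probe 24993 lay between 0.084 and 0.21 in all 5 arrays, and its probe 13336 between -0.16 and 0.14. Plk3, a polo-like kinase of the stress response, was at -0.11, -0.21 and -0.18 where Dyrk1a carried Cy5, and at 0.38 and 0.25 where it carried Cy3. The orientations of Plk3 did not overlap, and its fitted change was 0.075 (95% interval -0.019 to 0.17) beside a dye effect of -0.24 (limma adjusted p = 0.0371). Plk3 was the 1 of 26 members with a dye effect past the threshold, where 1.33% of all genes had one. Its dye effect did not pass without replicate 1, 3, 4 or 5. The single probe of Plk2, another polo-like kinase, had no value in any array.

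**Figure D3:**
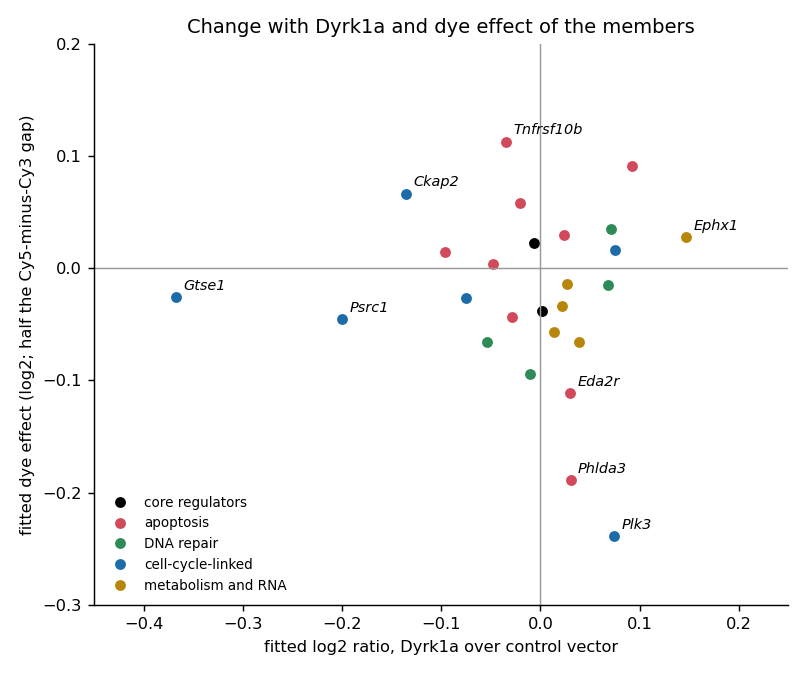
Fitted log2 ratio of Dyrk1a over control vector (horizontal axis) against the fitted dye effect (vertical axis, log2) for the 26 members, coloured by role. Gtse1 and Psrc1 lie far to the left with dye effects of -0.026 and -0.046, while Plk3 and Phlda3 lie low on the dye axis at -0.24 and -0.19.

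Metabolic and RNA-binding targets all had fitted values above 0, as did 6139 of all 11191 genes tested. Of the 5 targets, 0 passed an unadjusted p of 0.05, and their median was 0.027. Ephx1, the microsomal epoxide hydrolase of detoxification, was at -0.068, 0.58, 0.0090, 0.11 and 0.13. Replicate 2 was the highest in each of its probes, at 0.61 and 0.55. The fitted value of Ephx1 was 0.15 (SE 0.10, 95% interval -0.099 to 0.39, limma adjusted p = 0.674), and 0.045 without replicate 2. Sesn1, a sestrin that restrains growth signalling under stress, was fitted at 0.027 (95% interval -0.081 to 0.14). Tigar, a phosphatase that lowers glycolytic flux, was at 0.021 (95% interval -0.097 to 0.14). Dcxr, a carbonyl and xylulose reductase gene, was at 0.039 (95% interval -0.059 to 0.14). Zmat3, an RNA-binding zinc finger gene and a direct p53 target, was at 0.013 (95% interval -0.074 to 0.10).

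**Figure D4:**
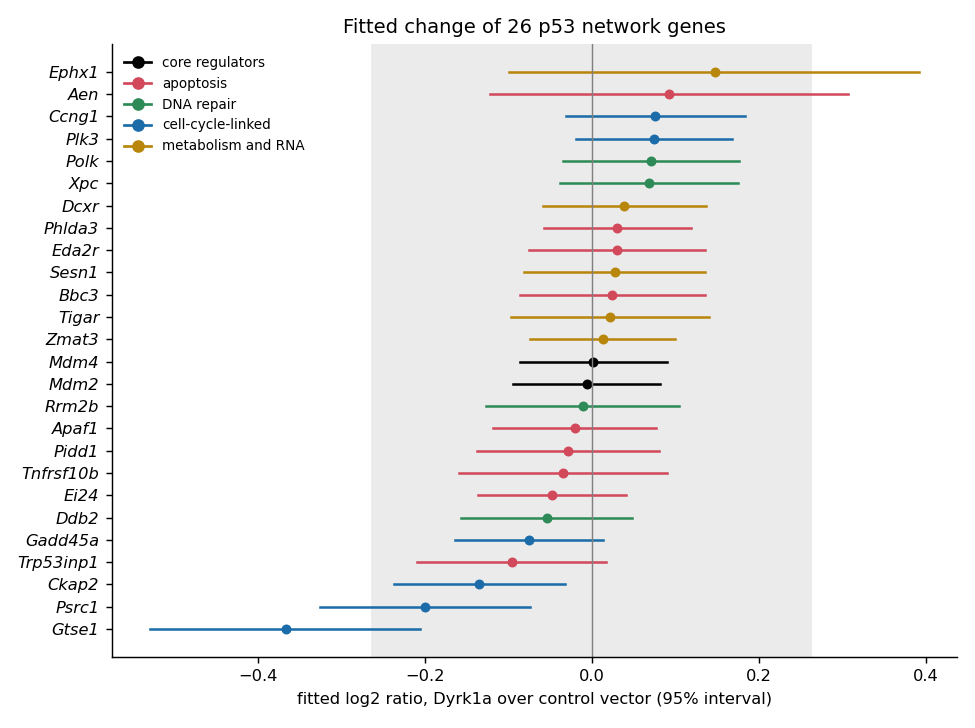
Fitted log2 ratio of Dyrk1a over control vector (horizontal axis; points) with its 95% interval (lines) for the 26 members, ordered by value and coloured by role. The grey band spans 1.2-fold either way and holds 22 of the 26 intervals whole, and the intervals of Gtse1, Psrc1 and Ckap2 leave out 0.

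Promoters of members are shown because the set joins genes chosen for p53 regulation with spindle genes of dividing cells, and these classes carry different known motifs. RefSeq promoters on build GRCm38.p6, from 250 bases before to 50 after each start site, were found for 24 of the 32 members. They were searched on both strands for TTTGAA, the cell cycle homology region (CHR) bound by complexes that time mitotic genes, for GCGGGAA, an E2F-type element, and for the p53 response element decamer by its consensus. Capitals mark every match in the windows below, written 5′ to 3′ along the gene.
Ckap2 (chr8:22185770-22186069, minus strand): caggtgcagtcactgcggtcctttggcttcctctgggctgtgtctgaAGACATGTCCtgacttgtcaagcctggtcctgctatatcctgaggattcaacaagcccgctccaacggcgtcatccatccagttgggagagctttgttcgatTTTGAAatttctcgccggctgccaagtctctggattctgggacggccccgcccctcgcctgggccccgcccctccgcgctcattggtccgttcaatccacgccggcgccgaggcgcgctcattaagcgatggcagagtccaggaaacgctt
Gtse1 (chr15:85859696-85859995, plus strand): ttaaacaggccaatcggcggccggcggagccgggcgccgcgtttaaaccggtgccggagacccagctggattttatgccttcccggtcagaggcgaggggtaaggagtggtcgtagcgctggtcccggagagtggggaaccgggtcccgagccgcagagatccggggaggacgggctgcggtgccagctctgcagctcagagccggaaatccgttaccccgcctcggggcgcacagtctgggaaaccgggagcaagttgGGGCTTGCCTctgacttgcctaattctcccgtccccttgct
Mdm2 (chr10:117710709-117711008, minus strand): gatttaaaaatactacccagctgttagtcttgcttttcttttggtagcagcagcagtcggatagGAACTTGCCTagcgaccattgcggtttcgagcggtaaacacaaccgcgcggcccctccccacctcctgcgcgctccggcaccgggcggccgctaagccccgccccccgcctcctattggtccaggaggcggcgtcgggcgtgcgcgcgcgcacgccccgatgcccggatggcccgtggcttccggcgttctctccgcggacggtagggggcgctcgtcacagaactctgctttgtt
Ccng1 (chr11:40755237-40755536, minus strand): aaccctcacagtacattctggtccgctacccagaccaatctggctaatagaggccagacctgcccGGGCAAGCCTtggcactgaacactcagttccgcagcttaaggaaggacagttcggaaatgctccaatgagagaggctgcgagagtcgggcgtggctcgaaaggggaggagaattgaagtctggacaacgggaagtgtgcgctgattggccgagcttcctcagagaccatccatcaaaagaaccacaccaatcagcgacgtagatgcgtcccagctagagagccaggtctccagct
Ckap2 held a CHR match that begins 101 bases before its start site and a p53 decamer that begins 203 bases before it. Gtse1 held a p53 decamer in the second of its promoters, beginning at base 10 after the start, and no TTTGAA in either. The promoters of Psrc1 held no match to any of the 3 patterns searched in these windows. Variant forms of TTTGAA were not searched, so the absence of a match does not show that a CHR is absent. Mdm2 and Ccng1, fitted at -0.0062 and 0.076, held p53 decamers beginning 186 and 185 bases before their start sites. In all, 11 of the 24 members (45.8%) held a p53 decamer, against 9.55% of the 27025 genes in the promoter table, a share that describes genes listed for their link to p53. TTTGAA was found in 4 members (16.7%, against 20.2% of genes), which were Ckap2, Aen, Bax and Fas. The E2F-type element was found in 2 (8.33%, against 5.29%), Bbc3 and Pidd1. In Bax the CHR match overlapped the decamer. A match describes letters in a window and no bound site.

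The wider p53 pathway was read from a list of 50 further genes, of which 38 were tested. In limma 0 passed the threshold, and the median was 0.000083. At an unadjusted limma p under 0.05, 1 was higher and 6 were lower, against 5.25% and 6.38% of all genes tested. Cdkn1a, the p21 inhibitor of cyclin-dependent kinases and the best known p53 target, was at 0.19, 0.32, -0.021, 0.072 and -0.22. Its signs were mixed in both orientations, and its fitted value was 0.044 (95% interval -0.12 to 0.21, limma adjusted p = 0.874). The lowest by p were Atr, the kinase that signals stalled replication forks, at -0.20 (SE 0.051), Ccng2, cyclin G2, at -0.21 (SE 0.065), the p53 phosphatase gene Ppm1d at -0.11 (SE 0.033), and Gadd45g at -0.10 (SE 0.033). Atr and Ppm1d were below 0 in 5 of 5 arrays. Ccng2 was below 0 in both arrays with Dyrk1a in Cy3 and in 1 of the 3 with it in Cy5. Gadd45g was below 0 only with Dyrk1a in Cy5, and its dye effect was -0.20 (limma adjusted p = 0.0402). Chek1, the checkpoint kinase downstream of Atr, was at -0.17 (SE 0.059), below 0 in 4 of 5 arrays. The highest by p were Trp53inp2 at 0.16 (SE 0.043), above 0 in 5 of 5 arrays, the p53-binding gene Ppp1r13b at 0.12 (SE 0.071), Trp53bp2 at 0.16 (SE 0.11), which reached 0.72 in replicate 2, and the survival gene Bcl2l1 at 0.065 (SE 0.046). Over these 8 genes chosen by p, the limma adjusted p ran from 0.209 for Atr to 0.692 for Bcl2l1.

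The spindle members were set beside 19 tested genes of mitosis, a process whose transcripts were already known to be lower in these arrays. The mitosis genes had a median of -0.30, from -0.84 to -0.19. Of the 19, 15 were below 0 in all 5 arrays, against 6.32% of all tested genes. Cdk1, whose kinase starts mitosis, was at -0.33, -0.35, -0.33, -0.25 and -0.27, with a fitted value of -0.30 (95% interval -0.38 to -0.22, limma adjusted p = 0.0605). Gtse1, at -0.37, and Psrc1, at -0.20, fell inside the range of the mitosis genes, and Ckap2, at -0.13, just outside it. The other 23 tested members ran from -0.096 to 0.15. The spindle members set apart were also the lowest by fitted value, and the mitosis genes were known to be lower. The gap between those 23 members and the mitosis genes therefore follows from how the lists were formed. The difference between these lists was not tested. The 7 tested markers of sympathetic neuroblasts, the lineage of the line, were all fitted above 0, as were 6139 of all 11191 genes tested. The median of these markers was 0.15, with array medians of 0.052, 0.34, 0.14, 0.040 and 0.12, the highest in replicate 2. Of these 7, 0 passed the threshold in limma and 3 were higher at an unadjusted p under 0.05, against 5.25% of all genes. The median was -0.026 over 2 markers of glia and 0.011 over 3 of fibroblasts, and the 1 tested marker of immune cells was at 0.0089. The part of these markers in the members' values was not tested.

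**Figure D5:**
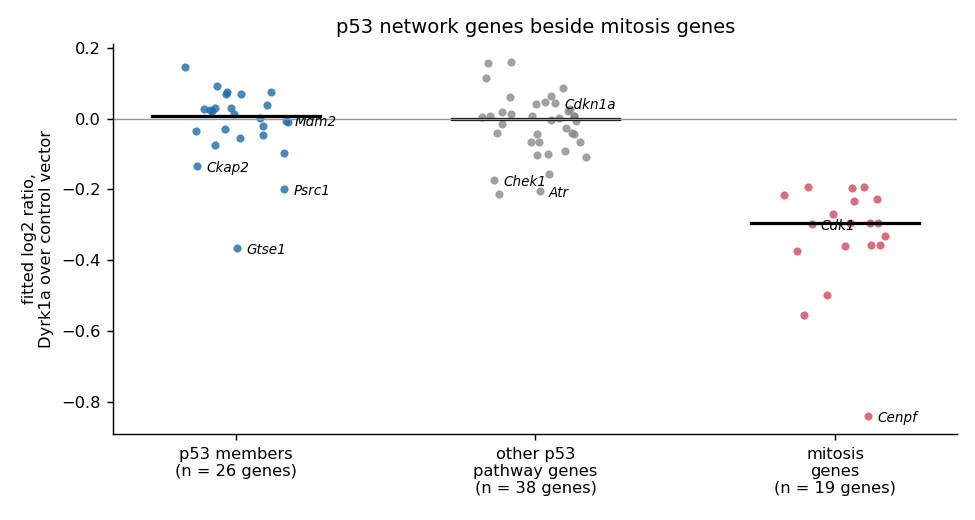
Fitted log2 ratio of Dyrk1a over control vector (vertical axis) for 26 p53 members, 38 other p53 pathway genes and 19 mitosis genes, with 1 point per gene, spread sideways for legibility, and a black bar at each list's median. Gtse1 and Psrc1 reach into the range of the mitosis genes, from -0.84 to -0.19, while Mdm2 and Cdkn1a lie near 0.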

How the data were processed

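The authors' deposited values, 1 table of 44290 features in 5 columns, were read as log2 ratios of the channels of each array. Neither log base nor direction was stated, and scanning, background correction, normalization and the reason for blanks are not given in the sources used. The table held 0 columns of other samples. Dyes and channels were taken from the labels. Probes of a gene with a value in every array were averaged, and the median of the 14307 tested features was subtracted from each array (removing -0.026 to 0.051). Genes were named from the platform annotation.

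The linear model was fitted in R 4.3.3 by limma 3.58.1 (lmFit, eBayes, two-sided), with coefficients for Dyrk1a and for the dye of each gene (coded 1 with Dyrk1a RNA in Cy5 and -1 in Cy3) as coefficients, leaving 3 residual degrees of freedom. Benjamini-Hochberg adjustment covered all 14307 features, and genes with an adjusted p under 0.05 count as called. Intervals are unadjusted 95% intervals of the moderated fit, and precision is limited by having 5 arrays. The fit was tested on simulated data.

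The members and lists were chosen with earlier results of these data known. Every member is given. Full array values are shown for the 8 members with the smallest p and for core genes. Of the other pathway genes, Cdkn1a, Chek1 and the 4 with the smallest p in each direction are named. Of the mitosis genes Cdk1 is named, and Ccnb1 was not analysed here. Other array and probe values were chosen after their values were seen. Alternatives dropped the dye term or the centring, scaled, quantile-normalized or weighted the arrays, required values in at least 4 arrays, fitted each probe, used trend and robust moderation, and left out 1 array in turn. Figures were drawn with matplotlib 3.10.9 in Python 3.11.15.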

Additional observations from a re-analysis of the deposited data

Results flagged for a closer look

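Of the 26 members, 3 had an array far from the other 4 by Dixon's criterion, which chance meets in about 1 in 20 groups of arrays. Aen stood at 0.533 in replicate 2, with the other arrays between -0.025 and 0.044, and its fitted value was -0.016 without that array. Mdm2 stood at -0.092 in replicate 4, with the others between 0.010 and 0.034, and its fitted value was 0.026 without it. In that replicate Mdm2 probe 37702 was at -0.20 and probe 42794 at 0.0195. Trp53inp1 stood at 0.063 in replicate 3, with the others between -0.16 and -0.10, and its fitted value was -0.13 without it.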

How the results depend on the processing

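In the limma fit 1 feature was called over the whole table, and 263 were called with the arrays scaled to the same spread, 296 after quantile normalization, 1612 with array weights, 0 over features measured in at least 4 arrays and 0 with trend and robust moderation, and from 0 to 393 with 1 array left out, the highest without replicate 2. Of the p53 members, 0 were called, against 1 after scaling and 1 after quantile normalization (Gtse1 both times), 5 with array weights, and from 0 to 2 with 1 array left out. The 5 were Gtse1, Psrc1, Ckap2 and Trp53inp1, lower, and Ccng1, higher. Of all 14307 features, 697 were called higher and 915 lower with array weights. After scaling 50 features were called higher and 213 lower, and after quantile normalization 54 higher and 242 lower. The weights were estimated from these same arrays and ran from 0.148 in replicate 2 to 3.74 in replicate 1. Of the other p53 pathway genes 7 were called with array weights, 1 higher and 6 lower, and 0 otherwise, also with 1 array left out. Dye effects were counted over settings chosen after seeing the data. In the main fit 1 member had a called dye effect, as did 1.33% of all genes tested. There were 2 after scaling, 2 after quantile normalization and 2 with trend and robust moderation (Plk3 and Phlda3 each time). With array weights there were 5, and with 1 array left out 0 to 2. The share of all genes with a called dye effect was not counted in these other settings, so the members' counts there have no background to be read against.

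Without the dye term Mdm4 was at -0.0062 and Phlda3 at -0.0071, with array weights Mdm4 was at -0.020 and Rrm2b at 0.0035, and Rrm2b was at 0.010 after scaling and 0.010 after quantile normalization, each opposite in sign to its fitted value. With 1 array left out, values of both signs occurred for Aen (-0.016 to 0.15), Apaf1 (-0.055 to 0.015), Bbc3 (-0.0096 to 0.059), Mdm2 (-0.037 to 0.026), Mdm4 (-0.013 to 0.017), Rrm2b (-0.039 to 0.024), Sesn1 (-0.014 to 0.070), Tigar (-0.0070 to 0.058), Tnfrsf10b (-0.065 to 0.0045) and Zmat3 (-0.014 to 0.041). In all, 18 of 338 recomputed member values changed sign. The cause of these changes was not tested. Medians with 1 array dropped were -0.014 to 0.013 for all members, -0.035 to -0.0026 for apoptosis genes, 0.013 to 0.033 for DNA repair genes and -0.13 to -0.082 for cell-cycle-linked genes. Signal over background was not used here, so weakly expressed members could not be set apart. Each array sets 1 Dyrk1a sample against 1 control vector sample, so the fit to these ratios already uses the pairing.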
